A study of Mus musculus with 6 samples.

Results

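Of the 49671 genes in the count table, 63 were nuclear genes of respiratory complexes II, III, IV and V or of cytochrome c, taken by symbol: Sdha to Sdhd and the Sdhaf genes, symbols beginning Uqcr, Uqcc or Atp5 or Cox with a digit, Cyc1 and Cycs. Cox7a1, Cox8b and 8 pseudogenes matched these patterns and were left out. By textbook role, 39 of the 63 encode subunits, 1 encodes the carrier cytochrome c, 18 encode assembly or accessory factors and 5 encode tissue-restricted isoforms of complex IV subunits. The levels came from RNA-seq of cultured mouse adipocytes in which Tcf7l2, the gene of a Wnt pathway transcription factor, was deleted or left intact. Knockout libraries (n = 3) came from cells given 4-hydroxytamoxifen and control libraries (n = 3), which the labels call wild type, from cells given ethanol, both for 24 h and 2 days before differentiation was induced. All cells descended from inguinal preadipocytes of C57BL/6 mice aged 3 months with floxed Tcf7l2. They had been sorted as CD34, Sca1 and CD29 positive, lineage negative cells, immortalised with SV40 large T antigen and given the tamoxifen-dependent recombinase CreERT2 by retrovirus. They were collected at day 8 of differentiation with dexamethasone, isobutylmethylxanthine and insulin. Each library's label also names a coded compound at 5 nM, with a different code every time, so whether all cells had the same compound is not settled. Deletion, tamoxifen and any difference in that compound cannot be told apart. The labels name a single inducible line and no separate cultures, so a p-value here reflects variation among libraries that could be purely technical.

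The respiratory chain passes electrons from metabolism to oxygen and pumps protons across the inner mitochondrial membrane. Complex II (succinate dehydrogenase) feeds in electrons from the citric acid cycle, complex III passes them to cytochrome c, and complex IV (cytochrome c oxidase) hands them to oxygen. Complex V is the ATP synthase, which the proton gradient drives. Complex II is built wholly from nuclear genes, while complexes III, IV and V each combine nuclear subunits with subunits encoded by mitochondrial DNA. Assembly factors insert haem, copper, flavin or iron-sulphur clusters or hold unfinished modules, and are not part of the finished enzyme. White fat cells gain mitochondria as they differentiate.

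Libraries held 26621293 to 33484764 counts. Levels are in CPM, counts scaled to library size with TMM factors, and log2 differences are knockout minus control (the log2 fold change), ± the standard error (SE) of the fit. Tcf7l2 itself was at 5.65, 6.85 and 5.86 CPM in knockout libraries, against 7.71, 6.13 and 9.11 CPM in control libraries, with overlapping groups (log2 difference -0.32 ± 0.14 SE, adjusted p = 0.125 by edgeR); which exons were floxed is not stated, so the whole-gene count does not check the deletion. All 5 adipocyte markers were called higher in knockout cells, with summed levels of 7806 to 9548 CPM in knockout and 5384 to 5653 CPM in control libraries. The 6 preadipocyte markers gave 0 calls (3472 to 3592 CPM in knockout and 3407 to 3622 CPM in control libraries). Among markers of cells removed by the sort, Adgre1 and Cd3e (immune) and Hbb-bs and Hba-a1 (red cell) had no counts, and the immune list summed to 1.51 to 2.07 CPM in knockout and 1.17 to 1.64 CPM in control libraries. Of the endothelial list (26.6 to 28.1 CPM in knockout and 23.1 to 25 CPM in control libraries), Pecam1 and Cdh5 stayed at or under 0.201 CPM in every library. Kdr was called higher, and Tek was not called (log2 difference -0.125).

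Most respiratory subunits rose in knockout cells, while most of their assembly factors were not called in either direction. Of 39 subunit genes, 33 were called higher and 0 lower by edgeR at an adjusted p under 0.05, against 11.9% of all tested genes called higher and 10.5% called lower. The 6 subunits that were not called were Cox7c, Atp5e, Atp5j, Atp5l, Atp5g1 and Atp5g2. Of 18 assembly and accessory factors, 3 were called higher, Uqcc1, Cox15 and Cox19, and 0 lower. Cytochrome c (Cycs) was called higher, and Cox6a2, the heart and muscle form of a complex IV subunit, was the single member called lower. The median log2 fold change (knockout over control) was 0.37 over the 39 subunits and 0.065 over the 18 factors, beside -0.0017 over all 14946 tested genes. In bulk RNA, more cells of a type and more RNA per cell cannot be told apart, and the adipocyte markers moved with the subunits; their part in the result was not tested. Nor was the difference between subunits and factors as groups.

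**Figure D1:**
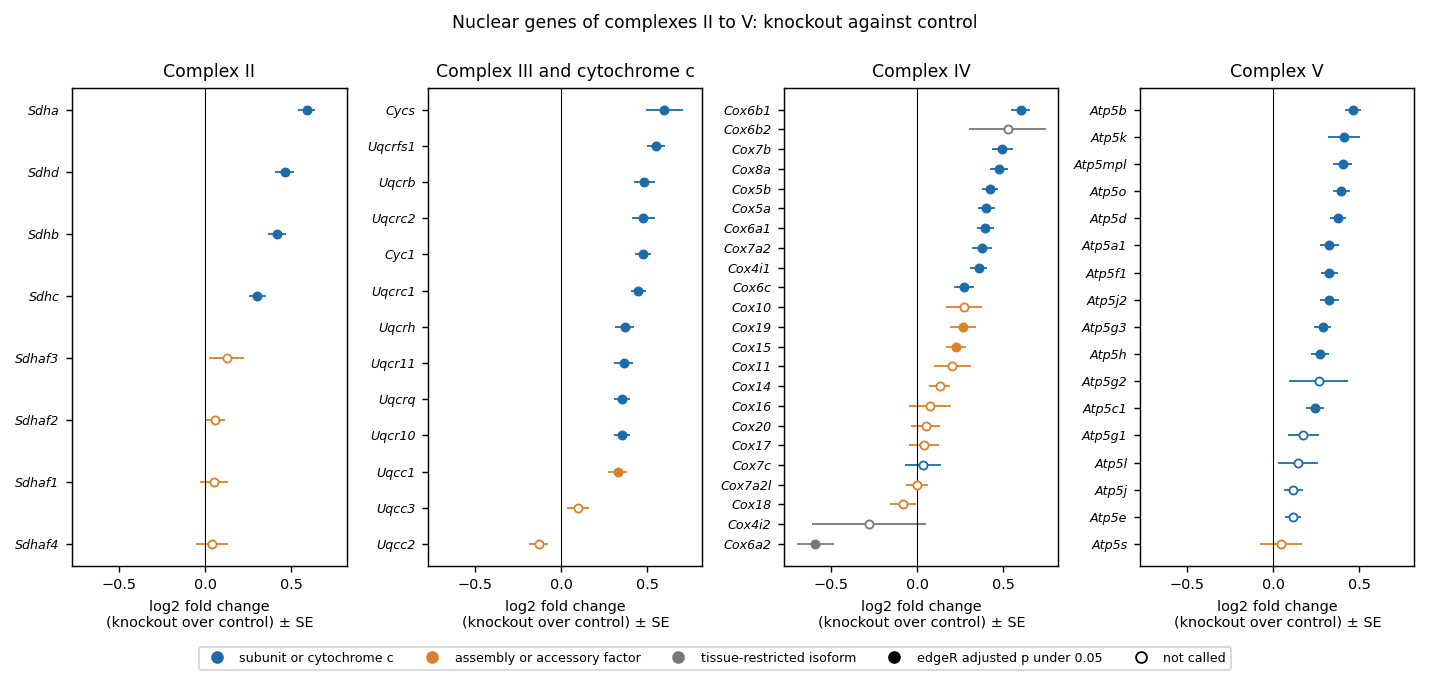
Log2 fold change of each tested gene (knockout over control, points) with its standard error (bars), by complex; filled points were called at an edgeR adjusted p under 0.05. Blue subunits lie to the right of 0 in every panel, with log2 fold changes of 0.033 to 0.60, while orange assembly and accessory factors run from -0.13 to 0.33.

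Summed over the 39 subunits, levels were 11584, 10857 and 11464 CPM in knockout libraries and 8725, 8466 and 8417 CPM in control libraries, 1.32-fold higher in knockout cells by group means. Summed over the 18 factors, they were 584, 551 and 572 CPM in knockout libraries and 538, 529.8 and 529 CPM in control libraries, a ratio of 1.07. Every knockout library lay above every control library in both sums, by a wide margin for subunits and a narrow one for factors. By gene, the libraries of the groups did not overlap for 36 subunits, all higher in knockout, against 18.5% of all tested genes not overlapping in that direction. The same held for 4 factors, and 1 further factor, Uqcc2, was lower in every knockout library, as were 19.3% of all tested genes. Factors were expressed at lower levels (median average log2 CPM 4.26, against 7.55 for subunits). Where the average log2 CPM reached 4 or more, 13.6% of 8222 tested genes were called higher. That level was reached by 11 of the factors, among them all 3 called higher, and by 35 of the subunits, among them all 33 called higher. Log2 fold changes were above 0 for 15 of the 18 factors and for all 39 subunits.

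**Figure D2:**
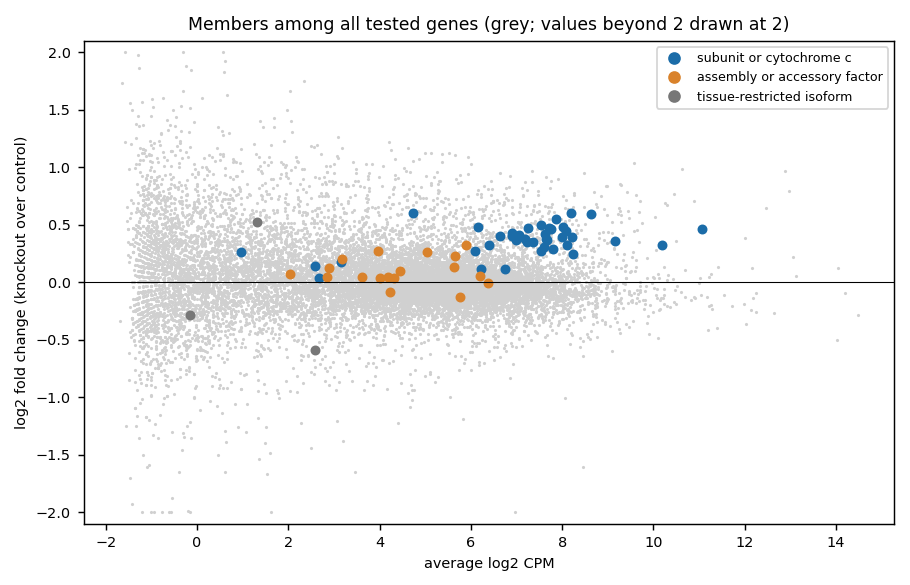
Log2 fold change (knockout over control, vertical axis) against average log2 CPM (horizontal axis) for all 14946 tested genes (grey) and the 61 tested members (coloured by role). Most subunits form a band above 0 at high levels, and the assembly factors lie lower and to the left, near 0.

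Complexes II, III and IV had similar medians, and complex V the lowest. Median log2 fold changes were 0.44 over the 4 subunits of complex II, 0.45 over the 9 of complex III, 0.40 over the 10 common subunits of complex IV and 0.31 over the 16 of complex V. All 4 and all 9 subunits were called higher in complexes II and III, 9 of 10 in complex IV and 11 of 16 in complex V. An average log2 CPM of at least 4 was reached by all subunits of complexes II and III, 9 of complex IV and 13 of complex V. The uncalled Cox7c, Atp5l, Atp5g1 and Atp5g2 lay lower, at 2.67, 2.58, 3.16 and 0.96, while the uncalled Atp5e and Atp5j reached that level. The part of level in these counts was not tested. Summed subunit levels of complex II were 1186, 1139.9 and 1173 CPM in knockout libraries and 851, 823 and 849.7 CPM in control libraries. For complex III they were 2027, 1839 and 1979 CPM in knockout libraries and 1471, 1421 and 1424 CPM in control libraries. Complex IV gave 2467, 2327 and 2504 CPM in knockout libraries and 1864, 1824 and 1785 CPM in control libraries. Complex V gave 5905, 5551 and 5808 CPM in knockout libraries and 4538, 4398 and 4358 CPM in control libraries. Knockout replicate 2 was the lowest knockout library in all 4 sums, yet stood above every control library. Whether complexes differed from each other in their rise was not tested, and ratios of group means ran from 1.39 (complex II) through 1.35 and 1.33 to 1.3 (complex V).

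**Figure D3:**
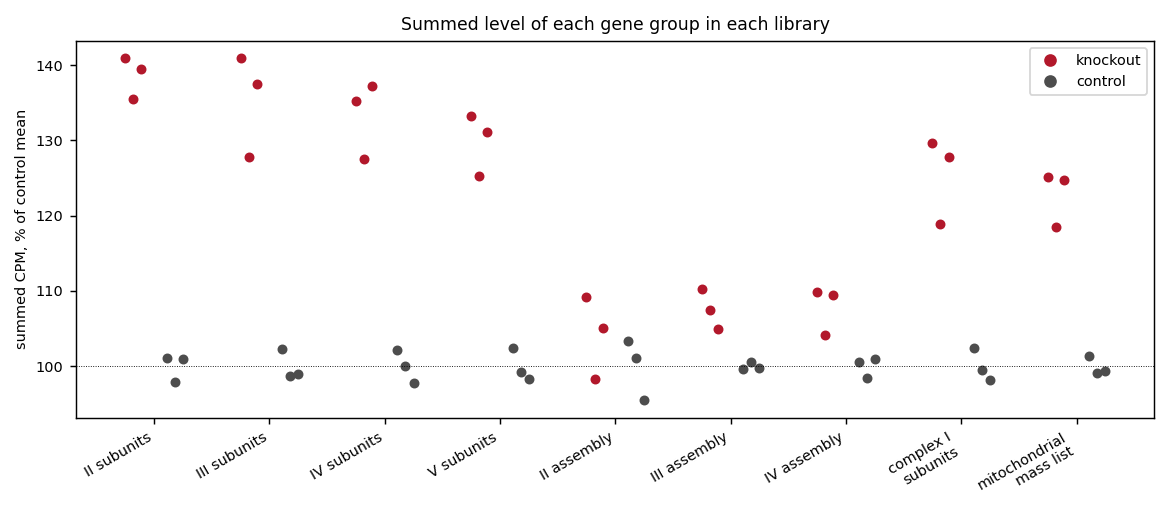
Summed CPM of each gene group in each library (points, replicates 1 to 3 from left), as a percentage of the control mean on an axis that does not start at 0; knockout libraries are left of control libraries. Subunits of complexes II to V in knockout libraries lie well above the control libraries, complex II assembly factors overlap with them, and knockout replicate 2 is the lowest knockout point of every subunit group.

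Promoters are shown for the 4 members that rose most by log2 difference, and for comparison that of Sdhaf2, the most abundant complex II assembly factor by CPM. RefSeq promoter windows on GRCm38.p6, from 250 bases before to 50 after the gene start, were matched for 49 of the 63 members. The start is that of RefSeq: it lay more than 500 bases from the gene's outermost GENCODE start for 8 members (4 subunits and 4 factors, up to 6252 bases), all counted below. Sdhaf2 is among them, at 933 bases, while the other 4 printed windows lay within 46 bases. Motifs were searched by their letters on both strands: NRF1 as GCGCA and GCGC with any 1 base between, the ETS/GABP motif as CCGGAAG, ERR as AAGGTCA, YY1 as AAGATGG, CREB/ATF as TGACGTCA and TCF/LEF as CTTTGAT; hits are in capitals below, 5′ to 3′ on the gene's strand.
Sdha promoter, chr13:74350191-74350490, minus strand: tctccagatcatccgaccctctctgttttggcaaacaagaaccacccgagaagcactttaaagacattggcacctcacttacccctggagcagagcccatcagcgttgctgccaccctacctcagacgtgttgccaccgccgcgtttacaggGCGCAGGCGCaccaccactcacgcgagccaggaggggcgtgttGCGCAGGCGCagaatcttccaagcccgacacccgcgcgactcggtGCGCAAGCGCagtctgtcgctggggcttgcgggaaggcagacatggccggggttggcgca
Uqcrfs1 promoter, chr13:30545267-30545566, minus strand: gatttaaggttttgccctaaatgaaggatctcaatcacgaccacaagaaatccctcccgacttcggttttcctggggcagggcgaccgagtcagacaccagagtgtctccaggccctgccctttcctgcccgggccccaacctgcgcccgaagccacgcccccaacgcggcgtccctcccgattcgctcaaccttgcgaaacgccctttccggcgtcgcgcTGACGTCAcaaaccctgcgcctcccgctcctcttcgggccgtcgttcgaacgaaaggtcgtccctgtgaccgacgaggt
Cycs promoter, chr6:50566520-50566819, minus strand: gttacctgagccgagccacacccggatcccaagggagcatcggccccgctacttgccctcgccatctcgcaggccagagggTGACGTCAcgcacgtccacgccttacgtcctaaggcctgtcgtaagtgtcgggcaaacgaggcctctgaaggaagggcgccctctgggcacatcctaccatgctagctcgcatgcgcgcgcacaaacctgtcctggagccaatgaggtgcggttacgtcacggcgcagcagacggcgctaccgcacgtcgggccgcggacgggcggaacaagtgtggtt
Cox6b1 promoter, chr7:30626065-30626364, minus strand: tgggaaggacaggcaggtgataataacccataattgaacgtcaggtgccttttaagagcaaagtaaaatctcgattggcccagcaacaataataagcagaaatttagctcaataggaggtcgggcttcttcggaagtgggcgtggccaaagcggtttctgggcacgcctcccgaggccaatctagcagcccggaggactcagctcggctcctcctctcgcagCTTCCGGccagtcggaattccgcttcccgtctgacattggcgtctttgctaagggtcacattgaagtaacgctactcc
Sdhaf2 promoter, chr19:10525160-10525459, minus strand: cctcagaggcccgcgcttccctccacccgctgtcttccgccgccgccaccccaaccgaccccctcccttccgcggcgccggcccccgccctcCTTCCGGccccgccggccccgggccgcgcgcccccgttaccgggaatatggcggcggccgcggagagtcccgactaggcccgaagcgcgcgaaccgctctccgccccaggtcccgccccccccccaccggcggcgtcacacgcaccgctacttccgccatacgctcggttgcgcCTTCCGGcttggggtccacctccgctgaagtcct

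The Sdha window held 3 NRF1 matches, the last ending at the base before the start, while Cycs and Uqcrfs1 each held 1 CREB/ATF match and were the 2 members with that motif. Cox6b1 held 1 ETS/GABP match and Sdhaf2, which was not called, held 2. Over the 31 matched windows of subunits and cytochrome c, 9 (29%) held the NRF1 motif and 11 (35.5%) the ETS/GABP motif. Over the 16 windows of assembly and accessory factors the counts were 3 (18.8%) and 8 (50%). Of all 32851 promoter windows of the same length, 4.6% held the NRF1 and 8.86% the ETS/GABP motif, so both member groups were above the whole set. The ERR motif was in 6 of the 49 windows (12.2%, against 4.72% of all), YY1 in 6 (12.2%, against 6.34%) and CREB/ATF in 2 (4.08%, against 1.79%). The letters CTTTGAT were in 0 of the 49 windows and in 3.73% of all. The whole set was not matched to the members for base composition or expression. A match describes letters and is not evidence of a bound site.

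In complex II, 4 of 4 subunits and 0 of 4 assembly factors were called higher. Sdha, the flavoprotein that oxidises succinate (GRCm38 chromosome 13, 74322254 to 74350280, minus strand), was at 461, 496 and 471 CPM in knockout libraries, against 318, 303 and 329 CPM in control libraries. The lowest knockout library stood far above the highest control library, 1.5-fold by the fit (log2 difference 0.59 ± 0.050 SE, adjusted p = 2.71e-06 by edgeR). Sdhb, the iron-sulphur subunit, was at 235, 210.1 and 231 CPM in knockout libraries, against 169.8, 169 and 168 CPM in control libraries, without overlap (log2 difference 0.42 ± 0.050 SE, adjusted p = 5.00e-05 by edgeR). The membrane anchors Sdhd and Sdhc, which hold the ubiquinone site, rose as well. Sdhd was at 267, 231 and 256 CPM in knockout libraries, against 187, 179.6 and 181 CPM in control libraries (log2 difference 0.46 ± 0.055 SE, adjusted p = 4.56e-05 by edgeR). Sdhc, at 223, 203 and 216 CPM in knockout libraries, against 176, 172 and 172 CPM in control libraries, rose least of the 4, 1.23-fold (log2 difference 0.30 ± 0.048 SE, adjusted p = 4.38e-04 by edgeR). None of these groups of libraries overlapped.

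Sdhaf2, which attaches the flavin to Sdha, was at 78.5, 70.8 and 76.6 CPM in knockout libraries, against 74.9, 72.6 and 69.3 CPM in control libraries, and the groups overlapped. Its log2 fold change of 0.057 had a 95% interval of -0.060 to 0.17 (edgeR adjusted p = 0.505), which ends below the fitted value of every complex II subunit. The interval was -0.13 to 0.23 for Sdhaf1, which serves iron-sulphur insertion into Sdhb, and -0.16 to 0.23 for Sdhaf4, which chaperones flavinated Sdha. Sdhaf3, the least abundant of the 4 by CPM, had the widest interval, -0.099 to 0.34, which reaches the value of Sdhc. Of the exonic bases of Sdhaf1, 69.6% overlap E130208F15Rik on the opposite strand, which averaged 0.821 CPM in knockout and 0.867 CPM in control cells.

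All 9 subunits of complex III were called higher, within a narrow band of 1.28 to 1.46-fold, and none of their groups of libraries overlapped. Uqcrfs1, the Rieske iron-sulphur protein (GRCm38 chromosome 13, 30540308 to 30545362, minus strand), rose most, at 294, 259 and 284 CPM in knockout libraries, against 195, 187 and 189 CPM in control libraries (log2 difference 0.55 ± 0.053 SE, adjusted p = 7.50e-06 by edgeR). Cyc1, cytochrome c1, which hands electrons to cytochrome c, was at 251, 238 and 242 CPM in knockout libraries, against 175, 174 and 176 CPM in control libraries (log2 difference 0.47 ± 0.044 SE, adjusted p = 5.49e-06 by edgeR). Its control libraries lay close together, and all 3 knockout libraries stood far above them. Of the core proteins, Uqcrc1 was at 315, 315 and 312 CPM in knockout libraries, against 234, 220.1 and 236 CPM in control libraries (log2 difference 0.45 ± 0.046 SE, adjusted p = 1.28e-05 by edgeR). Uqcrc2 was at 326, 266 and 318 CPM in knockout libraries, against 224, 218 and 213 CPM in control libraries (log2 difference 0.48 ± 0.068 SE, adjusted p = 2.94e-04 by edgeR). The knockout libraries of Uqcrc1 were nearly level, while knockout replicate 2 was lowest for Uqcrc2, and neither gene's groups overlapped. Uqcrb, second in the complex by rise, was at 83.9, 74.9 and 89 CPM in knockout libraries, against 60.2, 58 and 59.2 CPM in control libraries (log2 difference 0.48 ± 0.062 SE, adjusted p = 8.00e-05 by edgeR), and 43.2% of its transcript recurs unaltered in 4 pseudogenes. The small subunits Uqcr10, Uqcrq, Uqcr11 and the hinge protein gene Uqcrh rose least, by 0.35 to 0.37 on the log2 scale. Uqcrh was the most abundant subunit per length, at 420.1 CPM per kilobase in knockout and 326 in control cells.

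Of the 3 complex III factors, Uqcc1 rose and Uqcc2 and Uqcc3 were not called. Uqcc1 and Uqcc2 are partners in a module that helps mitochondria make cytochrome b. Uqcc1 was at 69, 61.7 and 65.9 CPM in knockout libraries, against 51.7, 53.4 and 51.7 CPM in control libraries (log2 difference 0.33 ± 0.055 SE, adjusted p = 6.78e-04 by edgeR). Uqcc2 was at 52.1, 54.2 and 48.2 CPM in knockout libraries, against 56.8, 56.1 and 56.5 CPM in control libraries, every knockout library below every control library, yet it missed the threshold (log2 difference -0.13 ± 0.055 SE, adjusted p = 0.109 by edgeR). It was called lower without knockout replicate 2 and without that library and control replicate 3 together, and its adjusted p ran between 0.0298 and 0.389 over the 14 alternative fits by their own tools. Uqcc3, which acts later in cytochrome b stabilisation, gave no call (log2 difference 0.098 ± 0.065 SE, adjusted p = 0.324 by edgeR). Uqcc1 and Uqcc2 had 95% intervals of 0.21 to 0.44 and -0.25 to -0.012 that do not meet. They were also the highest and lowest of the 18 factors by log2 fold change, and such extremes do not test a difference.

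Cycs, the mobile carrier between complexes III and IV (GRCm38 chromosome 6, 50562563 to 50566538, minus strand), was at 35.9, 25.9 and 34 CPM in knockout libraries, against 20.7, 21.8 and 20.8 CPM in control libraries, 1.51-fold higher in knockout cells (log2 difference 0.60 ± 0.11 SE, adjusted p = 0.00224 by edgeR). Knockout replicate 2 was lowest of the 3 but above all control libraries. Its main transcript shares 28.5% of its 50-base stretches with transcripts of 76 other genes, 10 of them pseudogenes, so its low level relative to Cyc1 is uncertain. The sources used here do not give how reads with several matches were counted.

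In complex IV, 9 of 10 common subunits were called higher, 1.21 to 1.52-fold. Cox6b1, which faces the intermembrane space where cytochrome c docks (GRCm38 chromosome 7, 30616861 to 30626151, minus strand), had the largest log2 fold change of all members. It was at 345, 338 and 370.5 CPM in knockout libraries, against 244, 228 and 222 CPM in control libraries, without overlap (log2 difference 0.60 ± 0.053 SE, adjusted p = 3.75e-06 by edgeR). Cox7b, a subunit encoded on the X chromosome, was at 224, 198 and 234 CPM in knockout libraries, against 162, 152 and 152 CPM in control libraries (log2 difference 0.49 ± 0.061 SE, adjusted p = 5.86e-05 by edgeR). Cox4i1, the common form of a large regulatory subunit and the most abundant of the complex per length (842 CPM per kilobase in knockout and 658 in control cells), was at 673, 615 and 644 CPM in knockout libraries, against 507, 512 and 490.5 CPM in control libraries (log2 difference 0.36 ± 0.049 SE, adjusted p = 1.35e-04 by edgeR). All 3 genes stood apart between groups. Cox8a, Cox5b, Cox5a, Cox6a1, Cox7a2 and Cox6c were called with log2 differences of 0.27 to 0.47. Cox5a and Cox5b, which flank the catalytic core, rose by 0.40 (SE 0.052) and 0.42 (SE 0.047). Cox8a was at 170.4, 169 and 189 CPM in knockout libraries, against 132, 125 and 123 CPM in control libraries (log2 difference 0.47 ± 0.054 SE, adjusted p = 2.83e-05 by edgeR). Cox6c, the least raised of the 9, was at 211, 186 and 208 CPM in knockout libraries, against 171, 171 and 158 CPM in control libraries (log2 difference 0.27 ± 0.057 SE, adjusted p = 0.00334 by edgeR). Cox6a1 was at 327, 342 and 340.3 CPM in knockout libraries, against 259, 243 and 265 CPM in control libraries (log2 difference 0.40 ± 0.049 SE, adjusted p = 5.43e-05 by edgeR), and Cox7a2 at 234, 208 and 239 CPM in knockout libraries, against 179, 181 and 165 CPM in control libraries (log2 difference 0.37 ± 0.059 SE, adjusted p = 4.10e-04 by edgeR). Both pairs of groups stood apart. Cox7c was the exception, at 6.59, 6.31 and 6.27 CPM in knockout libraries, against 5.9, 6.87 and 5.99 CPM in control libraries, with overlapping groups (log2 difference 0.033 ± 0.10 SE, adjusted p = 0.859 by edgeR); 53% of its transcript recurs in 3 pseudogenes, and the part of these copies in its count was not tested.

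**Figure D4:**
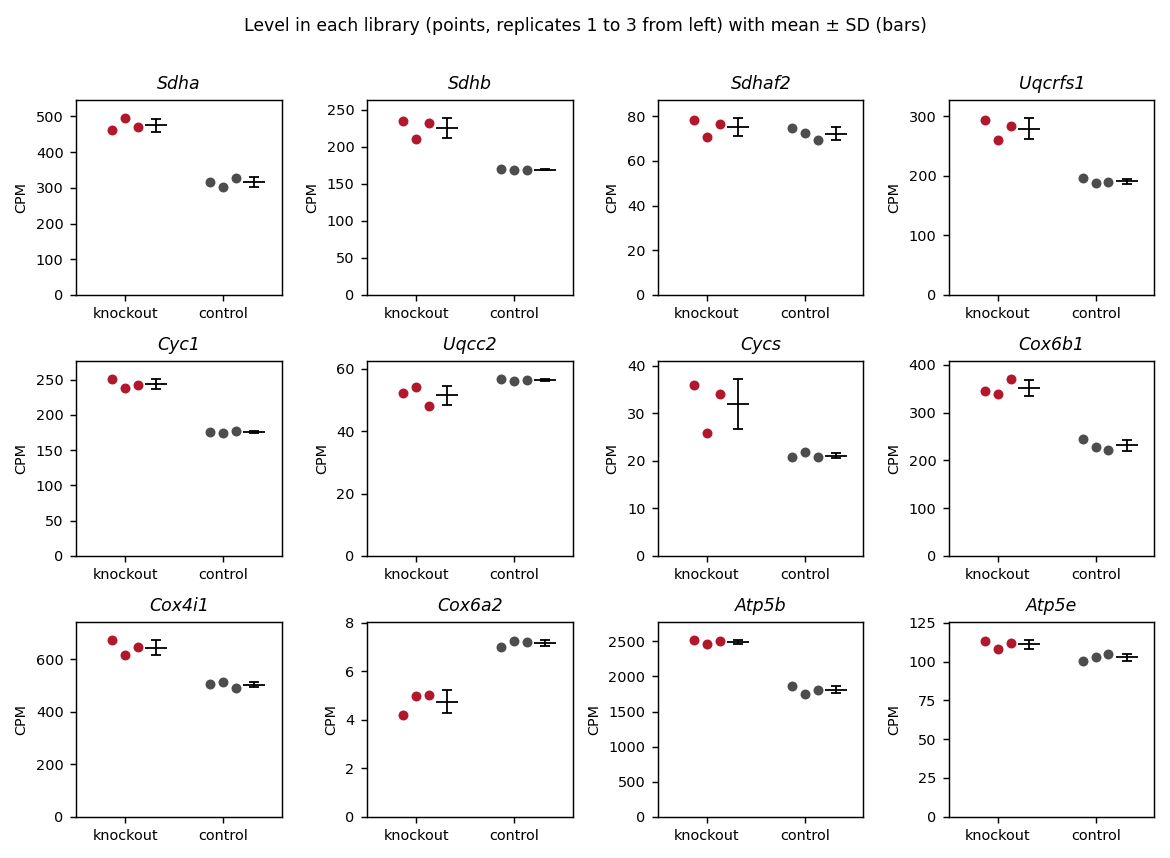
CPM of 12 members in each library (points, replicates 1 to 3 from left, knockout left of control) with mean ± SD (bars, n = 3); each axis starts at 0. Subunits such as Sdha, Uqcrfs1 and Cox6b1 separate the groups, Sdhaf2 and Uqcc2 lie close together between groups, and Cox6a2 is lower in knockout libraries.

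Of the 5 tissue-restricted isoforms of complex IV, 1 was called lower, 2 were not called and 2 were not tested. Cox6a2, the heart and skeletal muscle form of Cox6a (GRCm38 chromosome 7, 128205435 to 128206387, minus strand), was at 4.21, 5 and 5.04 CPM in knockout libraries, against 7.03, 7.26 and 7.23 CPM in control libraries, 1.51-fold lower in knockout cells (log2 difference -0.59 ± 0.11 SE, adjusted p = 0.00129 by edgeR), and was called in all 14 alternative fits. As a share of Cox6a1 plus Cox6a2 per transcript length, it made up 1.07, 1.21 and 1.23% in knockout libraries and 2.22, 2.45 and 2.24% in control libraries (exact 2-sided permutation p = 0.1, the smallest that 3 libraries against 3 can give). Skeletal muscle markers were low: Ckm, Myh1 and Myh4 were too low to be tested and Acta1 was at 1.37 ± 0.217 CPM in knockout cells and 1.38 ± 0.453 CPM in control cells (SD, n = 3 each). Actn3, also on that list, was called lower (log2 difference -0.40 ± 0.083 SE, adjusted p = 0.00329 by edgeR), and the list summed to 14.5 to 15.2 CPM in knockout and 18.1 to 20.4 CPM in control libraries; its part in the result was not tested. Itgad overlaps 10.3% of the exonic bases of Cox6a2 on the opposite strand and was at 21.4 ± 6.45 CPM in knockout cells and 22.1 ± 5.12 CPM in control cells (SD, n = 3 each), and was not called.

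Cox4i2, the lung and low-oxygen form, was at 0.635, 0.51 and 1.16 CPM in knockout libraries, against 1.04, 0.567 and 1.13 CPM in control libraries, with overlapping groups (log2 difference -0.28 ± 0.33 SE, adjusted p = 0.597 by edgeR). It made up 0.0993, 0.0872 and 0.189% in knockout libraries and 0.216, 0.116 and 0.242% in control libraries of Cox4i1 plus Cox4i2 per length (exact 2-sided permutation p = 0.2). Cox6b2, a testis form, was at 2.17, 3.25 and 3.1 CPM in knockout libraries, against 1.49, 1.81 and 2.71 CPM in control libraries, and missed the threshold (log2 difference 0.52 ± 0.22 SE, adjusted p = 0.117 by edgeR), although 4 of 14 alternative fits called it higher (adjusted p between 0.0188 and 0.401). The testis forms Cox7b2 and Cox8c were not tested, with 1 count in a knockout library for Cox7b2 and 0 elsewhere, and 0 in every library for Cox8c; 3 counts would be 0.0893 to 0.113 CPM here.

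The left-out isoforms Cox7a1 and Cox8b, forms of heart and muscle as well as thermogenic fat, replace Cox7a2 and Cox8a. Both had larger log2 differences than their common partners. Whether these differed was not tested. Cox8b was at 46.1, 45.9 and 51.6 CPM in knockout libraries, against 21.4, 17.4 and 27.2 CPM in control libraries (log2 difference 1.12 ± 0.15 SE, adjusted p = 0.00139 by edgeR), and Cox7a1 at 33.2, 23.3 and 36 CPM in knockout libraries, against 16.9, 11.5 and 18 CPM in control libraries (log2 difference 0.99 ± 0.23 SE, adjusted p = 0.0292 by edgeR). Per length, Cox8b made up 29.2, 29.3 and 29.4% in knockout libraries and 19.8, 17.5 and 25.2% in control libraries of Cox8a plus Cox8b. Cox7a1 made up 19.2, 15.8 and 20.2% in knockout libraries and 13.7, 9.62 and 15.5% in control libraries of Cox7a1 plus Cox7a2. Both shares were higher in every knockout than in every control library. Of other brown fat genes, Cidea, a lipid droplet protein, was called higher and Ucp1, the uncoupling protein, was not (log2 difference 1.75 ± 0.30 SE, adjusted p = 0.00633 by edgeR, and log2 difference 0.72 ± 0.34 SE, adjusted p = 0.216 by edgeR).

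**Figure D5:**
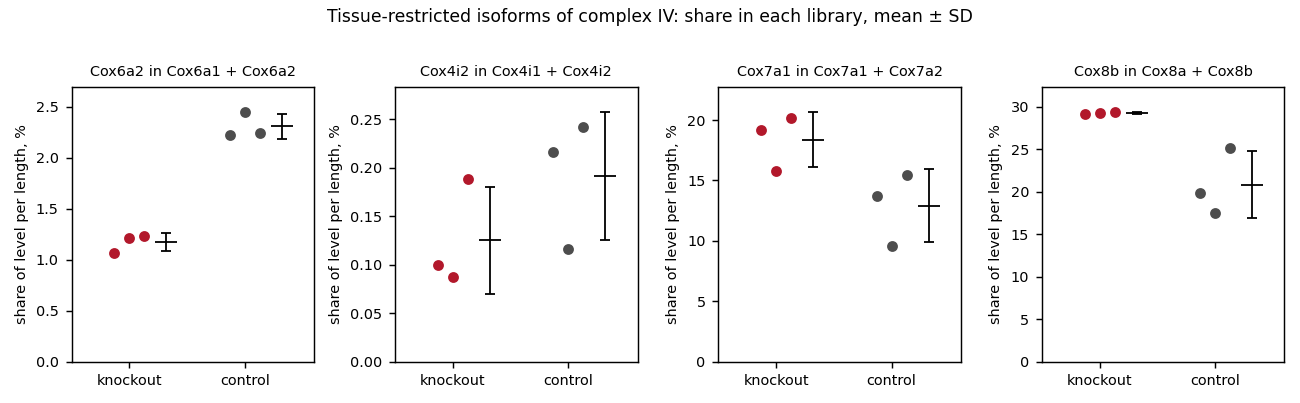
Share of the level per transcript length held by an isoform within its pair, in each library (points, replicates 1 to 3 from left, knockout left of control), with mean ± SD (bars, n = 3); axes start at 0. Cox6a2 falls to 1.17% in knockout libraries, against 2.31% in control libraries, Cox4i2 overlaps, and Cox7a1 and Cox8b are higher in knockout libraries.

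Among the 10 complex IV assembly and accessory factors, Cox15 and Cox19 were called higher and 8 were not called. Cox15, which makes haem A, was at 55, 52.6 and 54 CPM in knockout libraries, against 46.1, 43.6 and 48.7 CPM in control libraries (log2 difference 0.22 ± 0.056 SE, adjusted p = 0.0109 by edgeR); leaving out control replicate 2 ended that call (edgeR adjusted p = 0.0657). Its predecessor in that pathway, Cox10, was at 16.2, 19.4 and 15.4 CPM in knockout libraries, against 13.8, 12.7 and 15.9 CPM in control libraries and missed the threshold (log2 difference 0.27 ± 0.10 SE, adjusted p = 0.0816 by edgeR), while 3 alternative fits called it higher. Of the copper chaperones, Cox19 was at 36.1, 36.2 and 35.1 CPM in knockout libraries, against 32.5, 26.1 and 30.8 CPM in control libraries (log2 difference 0.26 ± 0.075 SE, adjusted p = 0.0223 by edgeR); leaving out control replicate 2 lowered the log2 difference to 0.17 (edgeR adjusted p = 0.11), and leaving out knockout replicate 3 ended the call with a difference of 0.28 (edgeR adjusted p = 0.061). Cox17 and Cox11, which pass copper onward, had log2 fold changes of 0.039 (SE 0.087) and 0.20 (SE 0.11). Of the exonic bases of Cox11, 48.3% overlap Tom1l1 on the opposite strand, which was itself called higher (1.53-fold).

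Of the remaining complex IV factors, Cox14, Cox18, Cox20, Cox16 and Cox7a2l were not called. Cox14, which binds newly made mt-Co1, had a log2 fold change of 0.13 (SE 0.060). It was called higher without knockout replicate 2 (edgeR adjusted p = 0.0472) and without that library and control replicate 3 together (edgeR adjusted p = 0.0301). Cox18, which inserts mt-Co2 into the membrane, had -0.085 (SE 0.075). Cox20, a chaperone of mt-Co2, had 0.049 (SE 0.084) and Cox16 had 0.073 (SE 0.12). The counts of Cox20 and Cox16 are uncertain: 91.1% of the exonic bases of Cox20 overlap the far more abundant Hnrnpu on the opposite strand, and 56.8% of those of Cox16 overlap Gm20498 on the same strand. Cox7a2l, whose long form joins complexes III and IV into supercomplexes and which resembles Cox7a2 in sequence, was at 87.3, 73.9 and 85.4 CPM in knockout libraries, against 83.1, 85.5 and 78.5 CPM in control libraries, with overlapping groups (log2 difference -0.0036 ± 0.064 SE, adjusted p = 0.976 by edgeR). Which form of Cox7a2l these cells carry was not examined. The 95% interval of Cox7a2l, -0.14 to 0.13, ends below the fitted value of Cox7a2.

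In complex V, 11 of 16 subunits were called higher, and 0 lower. Atp5b, the beta subunit that holds the catalytic site (GRCm38 chromosome 10, 128083273 to 128090391, plus strand) and the most abundant member by either scale (1302 CPM per kilobase in knockout and 944 in control cells), was at 2518, 2464 and 2502 CPM in knockout libraries, against 1858, 1756 and 1814 CPM in control libraries (log2 difference 0.46 ± 0.047 SE, adjusted p = 1.18e-05 by edgeR). Atp5a1, the alpha subunit, was at 1362, 1216 and 1295 CPM in knockout libraries, against 1064, 1026 and 999 CPM in control libraries (log2 difference 0.33 ± 0.053 SE, adjusted p = 5.34e-04 by edgeR). The head and central stalk genes Atp5d (delta) and Atp5c1 (gamma) rose by 0.37 (SE 0.047) and 0.24 (SE 0.052) on the log2 scale. Atp5c1 was at 341, 310.2 and 332 CPM in knockout libraries, against 285, 282 and 264 CPM in control libraries, a smaller step than that of Atp5b, with no overlap. Atp5e, the epsilon subunit, was at 113, 108 and 112 CPM in knockout libraries, against 100.3, 103 and 105 CPM in control libraries, all knockout libraries above all control libraries, but the step was small and not called (log2 difference 0.11 ± 0.046 SE, adjusted p = 0.096 by edgeR). Atp5e was called higher without knockout replicate 2 (edgeR adjusted p = 0.044) and without that library and control replicate 3 together (edgeR adjusted p = 0.0197). Atp5e and Atp5b had the smallest and largest log2 fold changes of the 16 subunits. Their 95% intervals, 0.015 to 0.21 and 0.36 to 0.56, do not meet, but a pair picked as extremes does not test a difference.

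Of the 8 other genes of the membrane part and outer stalk, 6 were called higher. Atp5k, subunit e, which links ATP synthase dimers, was at 168, 132 and 154 CPM in knockout libraries, against 113, 124 and 105 CPM in control libraries (log2 difference 0.41 ± 0.093 SE, adjusted p = 0.0132 by edgeR), with a wider SE than most subunits. Atp5mpl, a small proteolipid, and Atp5o, which clamps the stalk to the head, rose by 0.40 (SE 0.054) and 0.40 (SE 0.050). Atp5f1 (b), Atp5j2 (f) and Atp5h (d) rose by 0.33, 0.33 and 0.27 on the log2 scale, all without overlap; 50.5% of the Atp5h transcript recurs in 4 pseudogenes. Atp5j, coupling factor 6, was at 79.6, 75.3 and 77.2 CPM in knockout libraries, against 73.6, 73.9 and 66.5 CPM in control libraries, without overlap, and missed the threshold (log2 difference 0.12 ± 0.054 SE, adjusted p = 0.148 by edgeR); 12.7% of its exonic bases overlap Gabpa on the opposite strand. Atp5l, subunit g, gave no call (log2 difference 0.14 ± 0.12 SE, adjusted p = 0.428 by edgeR), and 68.5% of its transcript recurs in other genes. Atp5s, coupling factor B, grouped here with accessory factors, gave no call (log2 difference 0.045 ± 0.12 SE, adjusted p = 0.831 by edgeR).

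The ring that turns in the membrane is built of c subunits, for which mice carry 3 genes that encode the same mature protein with different import signals. Atp5g3 supplied nearly all counted reads, at 254, 232 and 251 CPM in knockout libraries, against 200.1, 207 and 197 CPM in control libraries (log2 difference 0.29 ± 0.049 SE, adjusted p = 8.54e-04 by edgeR). Atp5g1 was at 9.13, 9.24 and 9.9 CPM in knockout libraries, against 8.16, 8.86 and 8.02 CPM in control libraries, without overlap but not called (log2 difference 0.17 ± 0.090 SE, adjusted p = 0.195 by edgeR). Atp5g2 was at 2.27, 1.82 and 2.05 CPM in knockout libraries, against 1.94, 1.52 and 1.62 CPM in control libraries (log2 difference 0.26 ± 0.17 SE, adjusted p = 0.311 by edgeR). Of the Atp5g2 transcript, 87.4% recurs in 2 pseudogenes, and the part of these copies in its count was not tested. Per length, Atp5g1 made up 0.537, 0.595 and 0.589% in knockout libraries and 0.608, 0.639 and 0.609% in control libraries of the 3 genes (exact 2-sided permutation p = 0.1, the smallest possible). That share was lower in every knockout library, with means of 0.574% in knockout and 0.619% in control libraries.

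Knockout replicate 2 was the lowest knockout library for 33 of 40 subunit and cytochrome c genes, and the highest for 3, Sdha, Cox6a1 and Atp5d. Among control libraries the place was less steady: control replicate 3 was the lowest for 22 of the 40, control replicate 2 for 15 and control replicate 1 for 3. Relative to the control mean, the median log2 difference over the 39 subunits was 0.43, 0.29 and 0.41 in the knockout libraries, and 0.028, -0.0052 and -0.037 in the control libraries. Even the least raised knockout library stood above all 3 control libraries. Without these libraries, knockout replicate 2 and control replicate 3, 34 of 39 subunits were called higher.

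Per transcript length, common subunits and cytochrome c ran over a wide range, and Atp5b, Cox4i1, Cox6a1, Atp5a1 and Cox6b1 were the 5 highest in control cells. Cox6a1 was at 589 CPM per kilobase in knockout and 448 in control cells, and Cox6b1 at 568 CPM per kilobase in knockout and 375 in control cells. Cox6b1 stood above Atp5a1 in knockout cells and below it in control cells, with 522 CPM per kilobase in knockout and 417 in control cells for Atp5a1. Complex II subunits were lower than most, led by Sdhd at 204 CPM per kilobase in knockout and 148 in control cells, nearly level with Sdhb at 197 CPM per kilobase in knockout and 148 in control cells. Sdhc was the lowest of complex II, at 67.4 CPM per kilobase in knockout and 54.7 in control cells. The 5 at the bottom, Cox7c, Atp5l, Cycs, Atp5g2 and Atp5g1, were at or under 11.8 CPM per kilobase in both groups. Of these, Cox7c, Atp5l, Cycs and Atp5g2 have the copies given above, and Atp5g1 was divided by a transcript of 4715 bases, which may not be the form expressed. The order therefore depends on transcript choice and counting.

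Other mitochondrial genes were set beside the members. Of all tested genes, 11.9% were called higher and 10.5% lower. The 36 subunit genes of complex I, which passes electrons from NADH to ubiquinone, had a median log2 fold change of 0.33, with 33 called higher and 0 lower. Of 6 mitochondrially encoded subunits of complexes III to V, mt-Cytb (596, 545 and 497 CPM in knockout libraries, against 389, 419 and 404 CPM in control libraries) and mt-Co1 (4902, 4452 and 4605 CPM in knockout libraries, against 3733, 3437 and 3540.3 CPM in control libraries) were called higher, with log2 fold changes of 0.43 (SE 0.062) and 0.38 (SE 0.055). The other 4, mt-Co2, mt-Co3, mt-Atp6 and mt-Atp8, were listed at 0 in every library, beside the high counts of mt-Co1. The cause of these zeros was not tested, and they are not read as absent expression. Of 12 genes for general mitochondrial proteins, 5 were called higher and 0 lower (median 0.15). Cs, citrate synthase, was at 741 ± 9.52 CPM in knockout cells and 483 ± 25.4 CPM in control cells (SD, n = 3 each) (log2 difference 0.62 ± 0.050 SE, adjusted p = 1.98e-06 by edgeR), and the cristae genes Immt and Chchd3 rose by 0.38 and 0.42. Of the outer membrane genes among the 12, Vdac1, Vdac2 and Tomm20 were not called, with log2 fold changes of 0.14, -0.11 and -0.040. The values of Tomm22, Tomm40 and Cisd1 are not given here, so Vdac1, Vdac2 and Tomm20 do not stand for the class.

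Of 30 names on the list of further subunits and assembly factors of complexes III to V, 28 matched a symbol and 27 were tested, of which 10 were called higher and 0 lower (median 0.14). The share called higher was 37% of those tested, against 16.7% of the 18 factors above and 11.9% of all tested genes. The list's structural subunit, Ndufa4 of complex IV, rose with the others (log2 difference 0.36 ± 0.050 SE, adjusted p = 1.49e-04 by edgeR). Atpaf2, which guards unassembled Atp5a1, rose by 0.38 (SE 0.053), and Taco1, which activates mt-Co1 translation, by 0.40 (SE 0.083). The copper factors Sco1 and Sco2 were not called, with 0.028 (SE 0.071) and -0.24 (SE 0.11). Surf1, a complex IV assembly factor mutated in human Leigh syndrome, was called at a small step (log2 difference 0.16 ± 0.056 SE, adjusted p = 0.0487 by edgeR). Of 4 genes supplying haem and copper, the phosphate and copper carrier Slc25a3 rose (log2 difference 0.21 ± 0.047 SE, adjusted p = 0.00529 by edgeR), while Hccs, Fech and Slc31a1 were not called.

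Of 10 regulators of respiratory genes, 8 were tested, 3 were called higher and 0 lower. The share called higher was 37.5% of those tested, against 11.9% of all tested genes. Ppargc1b, a coactivator of mitochondrial genes, was at 6.92, 10.8 and 8.63 CPM in knockout libraries, against 4.35, 5.28 and 5.95 CPM in control libraries (log2 difference 0.77 ± 0.17 SE, adjusted p = 0.00727 by edgeR). Ppargc1a, its relative in brown fat, was at 5.59, 6.05 and 7.02 CPM in knockout libraries, against 3.6, 3.4 and 5.54 CPM in control libraries (log2 difference 0.58 ± 0.17 SE, adjusted p = 0.0285 by edgeR). Both were above control in all 3 knockout libraries. Esrra, 1 of several factors that both can act through, was at 54, 52.9 and 57.1 CPM in knockout libraries, against 45.2, 44.8 and 47.1 CPM in control libraries (log2 difference 0.26 ± 0.054 SE, adjusted p = 0.00333 by edgeR). The factor genes Nrf1, Gabpa and Yy1, whose motifs were searched above, were not called, with log2 fold changes of -0.10 (SE 0.052), 0.11 (SE 0.047) and -0.0030 (SE 0.048), and neither was Tfam.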

How the data were processed

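Per the file headers, the deposited table held raw counts per Ensembl gene, 1 column for each of 6 libraries; GRCm38, DESeq2 1.16.0, featureCounts 1.5.1 and STAR 2.5.2b appear in the submitters' processing notes, without roles. Per the labels' protocols, libraries were strand-specific and depleted of ribosomal RNA; of strand setting, annotation release and reads with several matches, nothing is given in the sources used here. Libraries were grouped by genotype label. Symbols (49326 of 49671 identifiers), coordinates and exon overlaps came from GENCODE M21.

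The test was the robust quasi-likelihood one of edgeR 4.0.16 (R 4.3.3) after TMM and filterByExpr, on the whole table, with Benjamini-Hochberg adjustment over 14946 genes; 61 of 63 members were tested. The SE is the log2 fold change over the square root of F, and 95% intervals use the fit's degrees of freedom. The common biological coefficient of variation was 5.91%. Levels per length divide CPM by the main curated transcript's length. Copies are 50-base stretches of that transcript found in transcripts of other, non-overlapping genes. Alternatives included DESeq2 1.42.0 and limma 3.58.1 (voom). Members, lists and alternatives were chosen with earlier results of these data known. Values in every library are given for redox and catalytic subunits, the leading risers and falls of each complex, its most abundant subunit per length and paralog sets; the others are summarised. The fit was tested on simulated data.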

Additional observations from a re-analysis of the deposited data

How the results depend on the processing

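Of 38 called members, 36 were called in all 14 alternative fits, and the exceptions were Cox15 and Cox19. Members called higher numbered 34 to 41 and subunits 32 to 34 across the alternatives, the stricter adjusted p of 0.01 included. Assembly and accessory factors called higher numbered 1 to 4 with 1 library left out (1 without control replicate 2), 5 without control replicate 3 and knockout replicate 2 together, and 1 at an adjusted p of 0.01. Members called lower numbered 1 to 2 with 1 library left out and 2 without those libraries together, Uqcc2 being the addition; the cause was not tested. The complex IV factor median was 0.14 without both libraries. Across the alternatives, subunit medians were 0.40 to 0.49 (complex II), 0.41 to 0.47 (III), 0.39 to 0.43 (IV) and 0.27 to 0.34 (V). No called member changed sign. Uncalled members near 0 did: with 1 library left out, log2 fold changes ran -0.038 to 0.18 for Atp5s, -0.026 to 0.12 for Cox17, -0.049 to 0.068 for Cox7a2l, -0.011 to 0.10 for Cox7c, -0.00051 to 0.082 for Sdhaf1 and -0.068 to 0.10 for Sdhaf4. Without both libraries Cox4i2 was at 0.11 and Cox7a2l at 0.036; Cox7a2l was at 0.00087 with upper-quartile scaling, 0.0056 with no filter on low counts and 0.0066 with a CPM of at least 1 in 3 libraries. The 3 paralog shares kept their direction under raw counts and with libraries left out, in designs that cannot reach a p of 0.05. No paired analysis was possible because no replicate numbers in the labels link knockout to control libraries. Cox7b2 and Cox8c were too low to be tested, and of the tested members Cox4i2, Atp5g2 and Cox6b2 had the lowest average levels; counting intervals would cover counting error only.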
